A study of Mus musculus with 2 samples.

Results

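The genes described here are 10 of the 13 protein-coding genes of the mouse mitochondrial genome, taken by symbol from both count matrices, which list 32285 genes each. They are mt-Nd1, mt-Nd2, mt-Nd4 and mt-Nd5 of complex I, mt-Cytb of complex III, mt-Co1, mt-Co2 and mt-Co3 of complex IV, and mt-Atp6 and mt-Atp8 of complex V. The other 3 genes, mt-Nd3, mt-Nd4l and mt-Nd6, are given beside them where a value is shared. All 10 were found in both matrices and all passed the minimum level used for ratios.

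Hematopoietic stem cells of mice, with blood as the labelled tissue, were cultured in suspension for 48 h with RO-3066 in one library and with its vehicle, dimethyl sulfoxide (DMSO), in the other, and were then profiled by droplet sequencing of transcript 3' ends. The labels give neither the target nor the dose of RO-3066, and they state no strain, age or sex of the mice, no number pooled and no gate used to isolate the cells. Each treatment had 1 library, so cells are not replicates, no test was possible, and every interval below covers counting error only (95%, exact).

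The mitochondrial genome is transcribed from both strands into long precursor RNAs, which are cut mostly at tRNAs into messenger RNAs and given poly(A) tails. Its protein-coding genes each supply a core subunit of the respiratory chain or of ATP synthase, while most other subunits are encoded in the nucleus and imported. Quiescent hematopoietic stem cells are known for drawing largely on glycolysis, and respiration is known to increase as they leave quiescence and differentiate. Pf4, platelet factor 4, is an abundant transcript of megakaryocytes and of stem cells with a platelet bias.

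The sequences below show where transcripts overlap or end, since the assay reads 3' ends and the share of a gene depends on which gene a read is assigned to. They are GENCODE vM21 gene models on mm10, written 5' to 3' on the plus strand. In the whole of mt-Atp8 (chrM:7766-7969) the capitals mark the 43 bases it shares with the start of mt-Atp6 (chrM:7927-8607). In the other sequences, which are the last 30 bases of each gene, the capitals mark the letters of the stop codon that the genome holds. The mt-Cytb gene ends in a lone T, as do mt-Co3 and mt-Nd4, and polyadenylation is known to complete such stop codons.
mt-Atp8: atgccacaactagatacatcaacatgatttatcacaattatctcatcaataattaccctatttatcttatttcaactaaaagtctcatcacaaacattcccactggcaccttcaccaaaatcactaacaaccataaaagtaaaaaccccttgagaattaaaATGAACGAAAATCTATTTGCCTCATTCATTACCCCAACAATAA
mt-Atp6: gtaagcctatatctacatgataatacaTAA
mt-Nd1: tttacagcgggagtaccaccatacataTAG
mt-Nd5: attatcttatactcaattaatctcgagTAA
mt-Cytb: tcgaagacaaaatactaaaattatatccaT

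The libraries held 3882 barcodes and 171821236 UMIs in RO-3066, against 6160 barcodes and 188022321 UMIs in DMSO, and 7 barcode sequences occurred in both. Kept cells, with at least 1000 UMIs and at most 10% mitochondrial UMIs, numbered 3799 in RO-3066 and 6134 in DMSO. Their median depth was 35160 UMIs in RO-3066 and 24352 UMIs in DMSO, so the cells compared differed in depth by 1.44-fold. Of 10 stem and progenitor markers, 9 reached 5 CPM (UMIs per 1000000 UMIs of the library) in both libraries, and Procr did not. The 8 megakaryocyte markers summed to 4768 CPM in RO-3066 and 5331 CPM in DMSO, of which Pf4 alone made 4211 CPM in RO-3066 and 4991 CPM in DMSO. Of the other 7, Clec1b was lower in RO-3066 and 6 were higher, such as Itga2b, at 277 CPM in RO-3066 and 176 CPM in DMSO. Erythroid markers summed to 457 CPM in RO-3066 and 203 CPM in DMSO, nearly all Hbb-bt, neutrophil and monocyte markers to 69.9 CPM in RO-3066 and 44.3 CPM in DMSO, mast cell markers to 7.09 CPM in RO-3066 and 2.91 CPM in DMSO, and lymphoid markers to 0.111 CPM in RO-3066 and 0.0532 CPM in DMSO. The part of these differences in the results below was not tested.

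The mitochondrial genome as a whole took a slightly larger share of the RNA in RO-3066. It held 1.71% of all UMIs in kept RO-3066 cells (1.710 to 1.714) and 1.55% in DMSO cells (1.551 to 1.554), a ratio of 1.10. The median cell had 1.70% in RO-3066, with quartiles of 1.34% and 2.11%, and 1.497% in DMSO, with quartiles of 1.26% and 1.76%. The spread over cells in each library was thus wider than the difference between the libraries. In UMIs, the median cell carried 606 mitochondrial UMIs in RO-3066 and 367 in DMSO, a ratio of 1.65. The ratio of the shares depended on depth. Among cells of 15000 to 40000 UMIs the mitochondrial share was 1.80% in RO-3066 and 1.51% in DMSO, a ratio of 1.19. Over cells below 15000, of 15000 to 40000 and above 40000 UMIs, the ratio lay between 1.03 and 1.19.

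The 10 genes made up 96.1% of mitochondrial UMIs in RO-3066 and 95.6% in DMSO, and their order of abundance was much alike in both. Per kb of gene, mt-Co2, mt-Atp6, mt-Co3, mt-Co1, mt-Cytb and mt-Nd1 followed each other in that order in both libraries. The highest, mt-Co2, which carries the copper centre that takes electrons from cytochrome c, stood at 4439 CPM per kb in RO-3066 and 4133 CPM per kb in DMSO. The lowest, mt-Nd5, a membrane subunit of complex I, stood at 130 CPM per kb in RO-3066 and 153 CPM per kb in DMSO. Between these lay mt-Atp8, at 632 CPM per kb in RO-3066, where it ranked below mt-Nd2 and mt-Nd4, and at 998 CPM per kb in DMSO, where it ranked above them. Since reads come from 3' ends, division by length affects this order: by UMIs alone mt-Atp8 was the lowest of the 10 in both libraries and mt-Nd5 the next, while mt-Co2 was still the highest and mt-Atp6 the next.

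**Figure D1:**
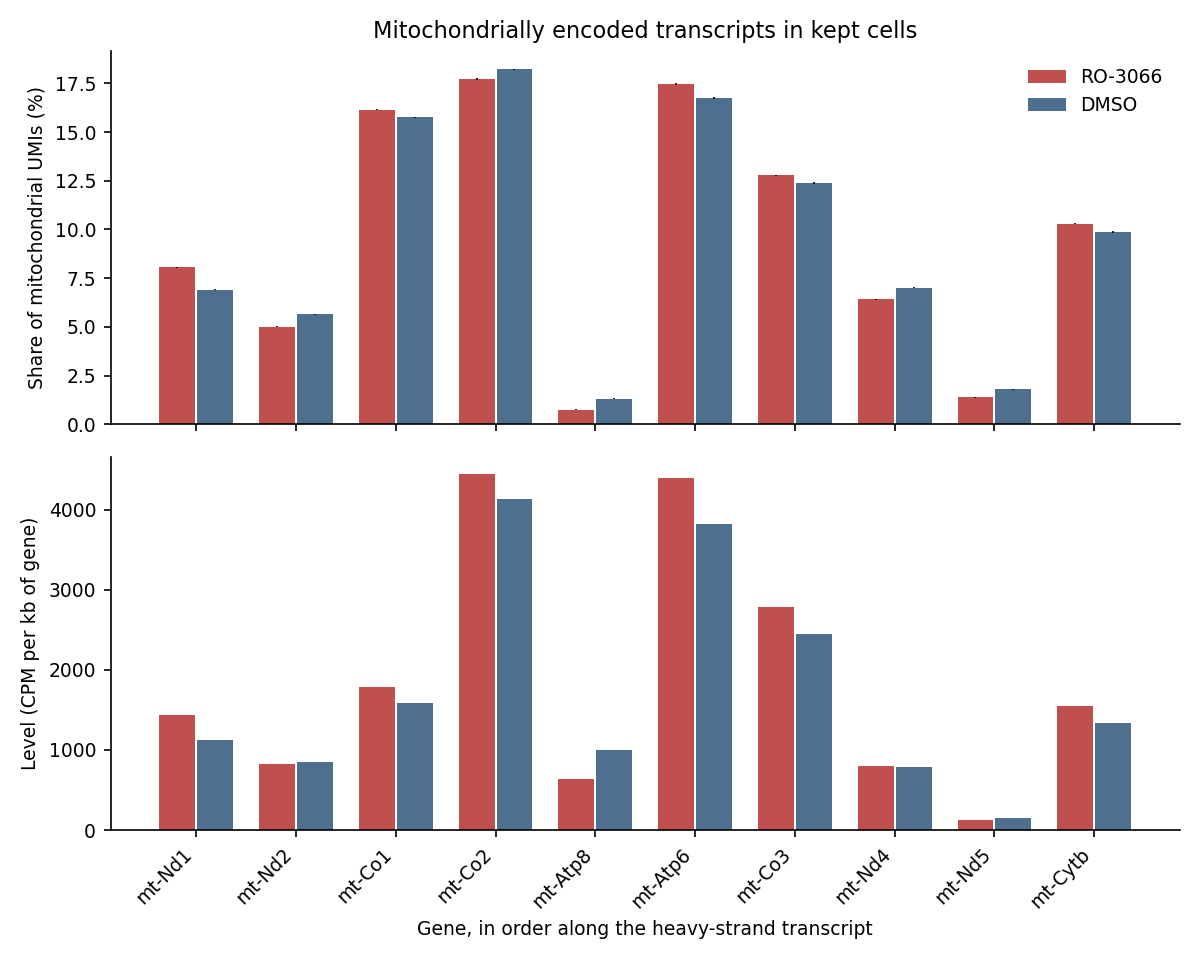
Share of mitochondrial UMIs (upper panel, %, with 95% exact intervals mostly thinner than the bar's edge) and level in CPM per kb of gene (lower panel) of each transcript in kept cells of the RO-3066 and DMSO libraries, 1 library each. mt-Co2 and mt-Atp6 stand highest per kb in both libraries, and mt-Nd1 and mt-Atp8 show the largest ratios between the libraries, in opposite directions.

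In summed levels, 7 of the 10 genes were higher in RO-3066 and 3 were lower, but nearly all by little. Of the 5765 genes that reached 20 CPM in 1 or both libraries, 41.7% were higher in RO-3066. None of the 10 was at least 1.5-fold higher, where 3.35% of all genes were, and 1 was at least 1.5-fold lower, where 2.27% of all genes were. The median log2 ratio of CPM plus a pseudocount of 1 was 0.14 over the 10 genes and -0.06 over all genes. A scaling that sets the median gene to no change shifts every log2 ratio up by 0.06, and it gives 8 genes higher and 2 lower. With that scaling, again 0 of the 10 were at least 1.5-fold higher, against 4.58% of all genes, and 1 was at least 1.5-fold lower, against 1.79%.

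The complex I genes moved apart from each other. mt-Nd1, at the joint between the membrane arm and the electron-carrying arm, had 1380 CPM in RO-3066 and 1071 CPM in DMSO, the highest ratio of the 10 at 1.29 (1.28 to 1.30). mt-Nd2, a membrane subunit that pumps protons, had 858 CPM in RO-3066 and 877 CPM in DMSO. Its ratio of 0.978 (0.972 to 0.985) turned to a log2 ratio of 0.03 under median-ratio scaling, so its direction is not settled. mt-Nd4, another proton-pumping subunit, was nearly level at 1100 CPM in RO-3066 and 1088 CPM in DMSO. mt-Nd5 was lower, at 236 CPM in RO-3066 and 279 CPM in DMSO, a ratio of 0.848 (0.837 to 0.859), though its log2 ratio was 0.03 in cells of 15000 to 40000 UMIs.

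mt-Cytb, the only complex III subunit encoded in the mitochondrial genome and the one that binds both hemes b, had 1764 CPM in RO-3066 and 1531 CPM in DMSO (ratio 1.15). The complex IV genes were all higher and close together. mt-Co1, which holds the oxygen-reducing site, had 2766 CPM in RO-3066 and 2444 CPM in DMSO (ratio 1.13). mt-Co2 had 3036 CPM in RO-3066 and 2827 CPM in DMSO (ratio 1.07), and mt-Co3, a core subunit without a metal centre, had 2187 CPM in RO-3066 and 1923 CPM in DMSO (ratio 1.14).

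The counts of the complex V genes went in opposite directions, although their models overlap and they are known to share a messenger RNA. How reads in the overlap were assigned is not known. Counts of mt-Atp8 are therefore uncertain and need not stand for a transcript level of its own. mt-Atp6, the subunit that forms the proton channel with the rotor ring, had 2990 CPM in RO-3066 and 2598 CPM in DMSO, a ratio of 1.15 (1.147 to 1.156). mt-Atp8, a small peripheral subunit of the membrane part, had 129 CPM in RO-3066 and 204 CPM in DMSO. That ratio, 0.633 (0.623 to 0.644), was the only one of the 10 beyond 1.5-fold. It was nearer to 1 under other ways of summing: the log2 ratio of mt-Atp8 was -0.66 in summed cells, -0.42 with equal weight per cell and -0.30 in cells of 15000 to 40000 UMIs, where it was no longer beyond 1.5-fold.

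**Figure D2:**
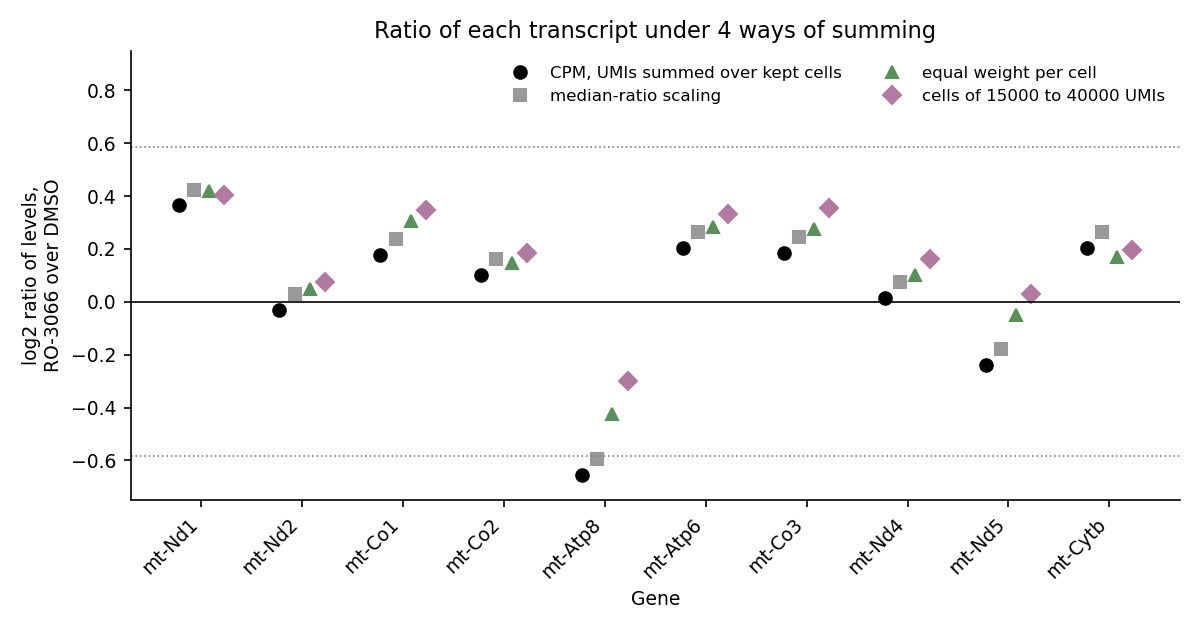
Log2 ratio of levels, RO-3066 over DMSO, for each transcript under 4 ways of summing the kept cells of 1 library per treatment; dotted lines mark 1.5-fold. mt-Atp8 lies below 0 under all 4 (-0.66 to -0.30), while mt-Nd2 and mt-Nd5 change sign.

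Within the mitochondrial UMIs, the composition differed between the libraries by 3.18 percentage points (the sum of the absolute differences over the 13 genes, halved). All 13 genes had intervals apart, mt-Nd3, mt-Nd4l and mt-Nd6 included, so separation does not mark out the 10. Of the 10, 5 shares were higher in RO-3066 and 5 lower. The higher shares were those of mt-Nd1 (8.06% in RO-3066, 6.90% in DMSO), mt-Atp6 (17.5% in RO-3066, 16.7% in DMSO), mt-Cytb (10.3% in RO-3066, 9.86% in DMSO), mt-Co1 (16.2% in RO-3066, 15.7% in DMSO) and mt-Co3 (12.8% in RO-3066, 12.4% in DMSO). The lower shares were those of mt-Nd2 (5.01% in RO-3066, 5.65% in DMSO), mt-Nd4 (6.43% in RO-3066, 7.01% in DMSO), mt-Atp8 (0.753% in RO-3066, 1.31% in DMSO), mt-Co2 (17.7% in RO-3066, 18.2% in DMSO) and mt-Nd5 (1.38% in RO-3066, 1.80% in DMSO). Sums over complexes hid most of this. Complex IV genes held 46.7% in RO-3066 and 46.3% in DMSO, complex I genes 20.9% in RO-3066 and 21.4% in DMSO, and complex V genes 18.2% in RO-3066 and 18.0% in DMSO.

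Of these shares, 9 kept their side of 1 under all 7 alternatives tried, which included equal weight per cell, other limits on barcodes and cells of 15000 to 40000 UMIs. The exception was mt-Cytb, whose share ratio of 1.04 fell below 1 in 3 of the 7, to as little as 0.961 in cells of 15000 to 40000 UMIs. Under these settings the share ratio of mt-Nd1 lay between 1.11 and 1.17, and that of mt-Atp8 between 0.571 and 0.680. The ranges were wider over 3 bands of depth, below 15000, 15000 to 40000 and above 40000 UMIs. There mt-Nd1 had ratios of 1.11 to 1.25 and mt-Atp8 of 0.565 to 0.823, while mt-Co1 fell below 1 in 1 band, to 0.957.

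Neighbouring genes in the genome did not keep a fixed ratio to each other. mt-Atp8 and mt-Atp6 are known to share a messenger RNA, and mt-Nd4l and mt-Nd4 share another. For every 100 mt-Atp6 UMIs there were 4.31 mt-Atp8 UMIs in RO-3066 (4.25 to 4.37) and 7.84 in DMSO (7.76 to 7.92). For every 100 mt-Nd4 UMIs there were 21.2 mt-Nd4l UMIs in RO-3066 (21.0 to 21.5) and 25.9 in DMSO (25.6 to 26.1), with 7 bases in common between the models. On both shared messengers, the gene at the 5' end was thus lower relative to its partner in RO-3066 than in DMSO. mt-Nd2, which does not overlap mt-Nd1, had 62.2 UMIs per 100 mt-Nd1 UMIs in RO-3066 and 81.9 in DMSO. By contrast, mt-Co3 per 100 mt-Atp6 UMIs was 73.1 in RO-3066 and 74.0 in DMSO. The sources used here do not say how reads in the overlaps were assigned, so counts of mt-Atp8, mt-Nd4l and mt-Nd6 are uncertain, and the part of that assignment in these ratios was not tested.

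Several features of the models that the choice of genes did not use also set mt-Atp8 apart. It is the shortest of the 10, at 204 bases against 681 to 1824 bases for the others. It has the most A, at 40.7% of bases, against 29.5% in mt-Co1 at the low end, and the lowest GC content, at 31.9%. All 10 are encoded on the same strand. mt-Nd6, the only protein-coding gene on the other strand, was sparse, with 21.0 CPM in RO-3066 and 27.6 CPM in DMSO.

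Cell by cell, mt-Cytb had the largest variance of share relative to binomial sampling among the 10 transcripts. In cells with at least 100 mitochondrial UMIs, 3738 in RO-3066 and 6063 in DMSO, the variance of its share was 5.43 times that of binomial sampling in RO-3066 and 3.92 times in DMSO. The other 9 genes lay between 1.89 (mt-Atp6) and 3.15 (mt-Nd1) in RO-3066, and between 1.56 (mt-Co3) and 3.09 (mt-Co1) in DMSO. This measure also rises with abundance, so it does not rank spread relative to the mean. In RO-3066 the standard deviation was 2.79 points on a mean of 10.4% for mt-Cytb, and 0.520 points on 0.829% for mt-Atp8. In DMSO it was 3.10 points on 10.5% for mt-Cytb and 0.728 points on 1.32% for mt-Atp8. The median cell gave mt-Cytb 10.04% of its mitochondrial UMIs in RO-3066 and 10.03% in DMSO, so the medians were alike although the summed shares were not. mt-Cytb also ran against the total. Its share had a Spearman rho of -0.564 with the mitochondrial percentage over RO-3066 cells and -0.397 over DMSO cells, and that of mt-Nd5 had 0.406 over RO-3066 cells and 0.340 over DMSO cells. These are descriptions over cells of a library that share depth and a denominator. The levels of the 10 genes ran together across cells, with a median rho of 0.658 over 45 pairs in RO-3066 and 0.514 in DMSO. Kept cells had a median of 606 mitochondrial UMIs in RO-3066 and 367 in DMSO. The part of that difference in these rho and in the variance ratios was not tested. The lowest pair held mt-Cytb in both, with mt-Atp8 in RO-3066 (0.243) and with mt-Co1 in DMSO (0.120).

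**Figure D3:**
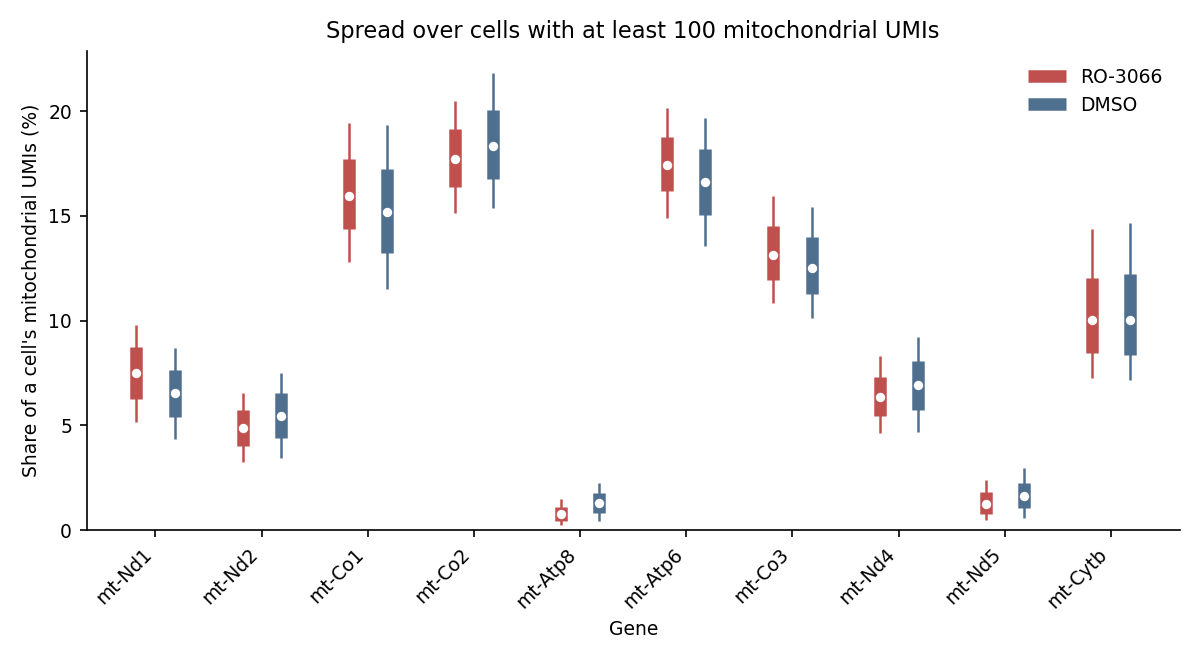
Share of each cell's mitochondrial UMIs held by each transcript, over 3738 RO-3066 and 6063 DMSO cells with at least 100 mitochondrial UMIs; white points are medians, thick bars quartiles and thin lines the 10th to 90th percentiles. The cells of the libraries overlap widely for every gene, and mt-Cytb has equal medians near 10%.

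Pf4 share was taken over UMIs outside the mitochondrial genome, and cells were placed in 5 bins by the quintiles of DMSO cells, which lay at 0.0181%, 0.0372%, 0.100% and 0.388%. From low to high Pf4, these bins held 1153, 804, 645, 570 and 627 cells in RO-3066, against 1226 or 1227 cells each in DMSO. Deeper cells had more Pf4: median UMIs went from 24983 in the lowest bin to 83510 in the highest in RO-3066, and from 21523 to 37241 in DMSO. The Spearman rho of Pf4 share with UMIs was 0.668 in RO-3066 and 0.417 in DMSO, so Pf4 share and depth cannot be fully told apart here. The mitochondrial share of all UMIs was 1.79%, 1.80%, 1.79%, 1.65% and 1.64% from low to high Pf4 in RO-3066, against 1.53%, 1.56%, 1.54%, 1.51% and 1.59% in DMSO. It was higher in RO-3066 in each of the 5 bins, with a ratio of 1.17 in the lowest and 1.03 in the highest. In cells of 15000 to 40000 UMIs it was also higher in each bin, but the order of the ratios was another: they were 1.17, 1.16, 1.21, 1.14 and 1.36 from low to high Pf4. At that depth the highest bin kept few RO-3066 cells, which limits the 1.36 and every later RO-3066 value from that bin.

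mt-Atp8 was graded along Pf4 in RO-3066, and it also ran with depth. Over RO-3066 cells with at least 100 mitochondrial UMIs, the rho of mt-Atp8 share was -0.257 with Pf4 share and -0.277 with UMIs. The mt-Atp8 share was 0.957%, 0.896%, 0.829%, 0.720% and 0.551% from low to high Pf4 in RO-3066, and 1.37%, 1.38%, 1.34%, 1.41% and 1.202% in DMSO. Each bin was lower than the one before in RO-3066, while in DMSO the first 4 bins lay close together and the highest was lower. Between libraries, the ratio of mt-Atp8 shares was thus 0.700 in the lowest bin and 0.459 in the highest. In RO-3066 cells of 15000 to 40000 UMIs the share was also lower at high Pf4, at 1.003% in the lowest bin and 0.742% in the highest, though 34 RO-3066 cells, against 643 DMSO cells, were left in the highest bin. In DMSO cells of that depth, mt-Atp8 instead ran from 1.37% to 1.52%.

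mt-Nd5 was likewise lower in each later bin in RO-3066, with 1.56%, 1.54%, 1.51%, 1.36% and 1.16% from low to high Pf4, while DMSO cells had 1.68%, 1.76%, 1.79%, 1.85% and 1.84%. mt-Nd1 was higher toward high Pf4 in both, from 7.60% to 8.62% in RO-3066 and from 6.60% to 7.30% in DMSO. In cells of 15000 to 40000 UMIs this was not seen, since the lowest and highest bins had 7.45% and 7.61% in RO-3066, and 6.662% and 6.661% in DMSO, with intervals overlapping. mt-Co3 was lower toward high Pf4 in both, from 13.4% to 11.9% in RO-3066 and from 12.8% to 11.9% in DMSO, and the libraries met in the highest bin. At 15000 to 40000 UMIs mt-Co3 was still lower at high Pf4 in both, with ratios of highest to lowest bin of 0.918 in RO-3066 and 0.954 in DMSO. mt-Nd1 ran with depth: across cells below 15000, of 15000 to 40000 and above 40000 UMIs, mt-Nd1 held 6.42%, 7.37% and 8.43% in RO-3066, and 5.16%, 6.63% and 7.52% in DMSO.

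mt-Cytb went opposite ways along Pf4, from 9.80% to 11.01% in RO-3066 and from 10.3% to 9.44% in DMSO. In cells of 15000 to 40000 UMIs the opposition was not seen, since the ratio of the highest to the lowest bin was 0.978 (0.935 to 1.02) in RO-3066 and 1.01 (0.995 to 1.03) in DMSO. The highest bin held 34 RO-3066 cells at that depth, which limits this comparison and the ones below. mt-Co1 crossed between the libraries at the top, with 15.9% in RO-3066 and 16.4% in DMSO in the highest bin. mt-Co2 also crossed there, with 18.3% in RO-3066 and 18.1% in DMSO. Neither crossed in cells of 15000 to 40000 UMIs, where the highest bin gave mt-Co1 16.3% in RO-3066 and 14.7% in DMSO, and mt-Co2 17.7% in RO-3066 and 18.1% in DMSO, the intervals of mt-Co2 overlapping. mt-Nd2 ran from 5.07% to 4.99% in RO-3066 and from 5.29% to 5.79% in DMSO. mt-Nd4 was lower toward high Pf4 in both, from 6.71% to 6.22% in RO-3066 and from 7.18% to 6.89% in DMSO, but at 15000 to 40000 UMIs the intervals of the lowest and highest bins overlapped, with ratios of 0.953 in RO-3066 and 1.006 in DMSO. mt-Atp6 stayed between 17.3% and 17.6% in RO-3066 and between 16.6% and 16.8% in DMSO, except that the 34 RO-3066 cells of 15000 to 40000 UMIs in the highest bin had 19.4%.

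**Figure D4:**
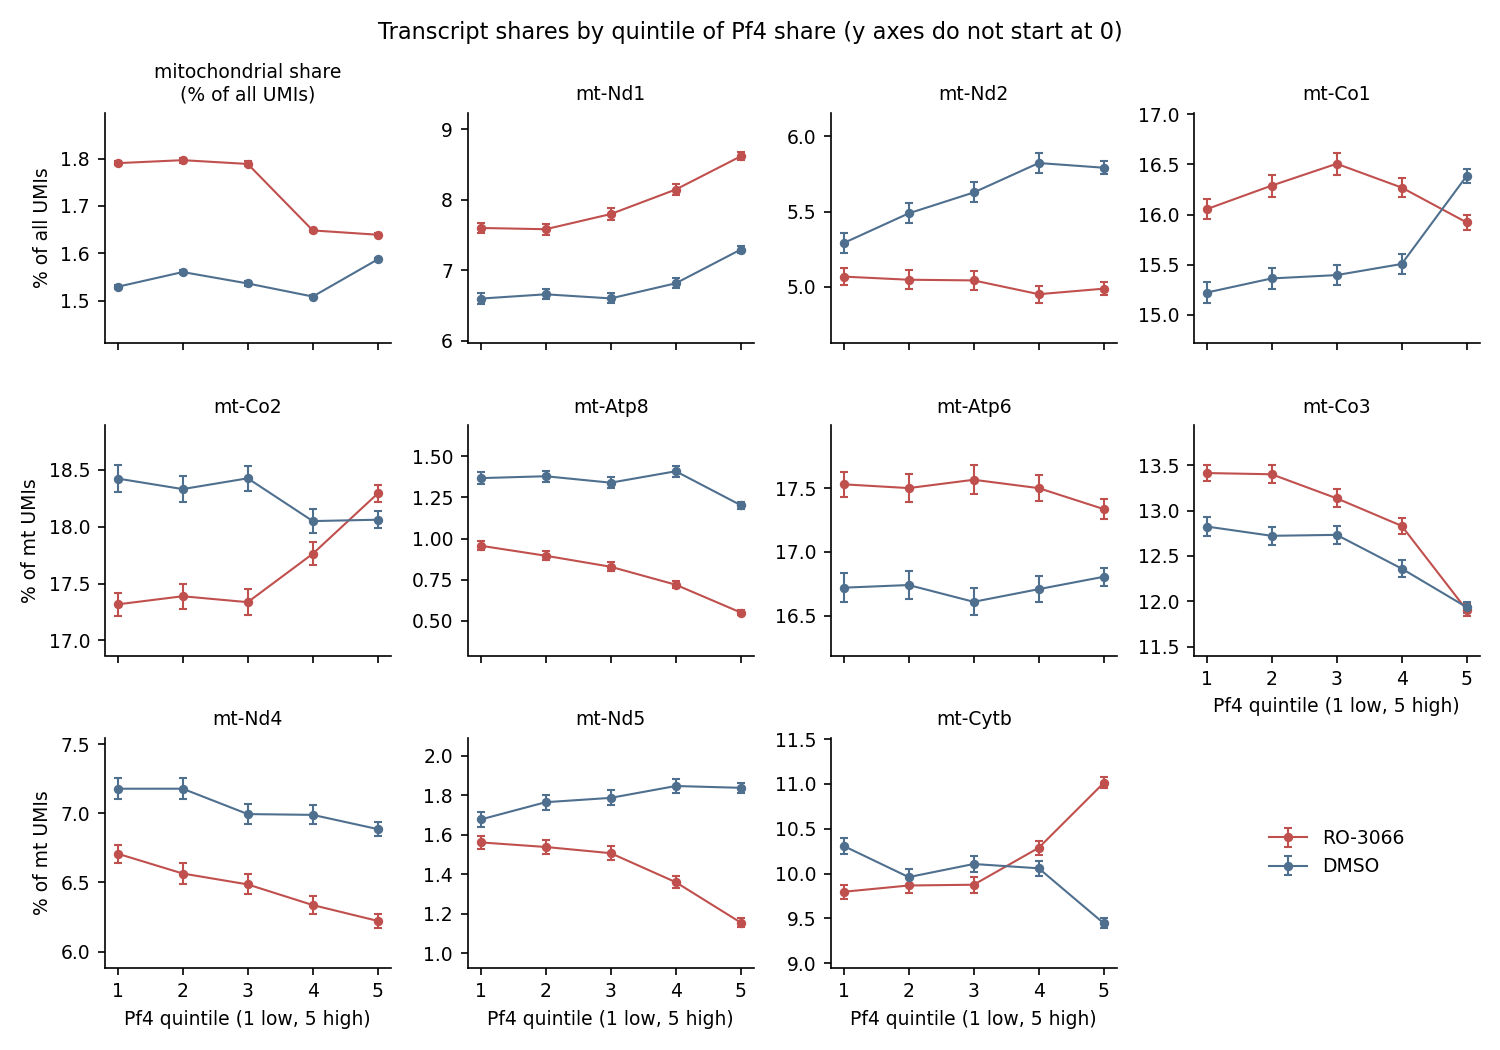
Mitochondrial share of all UMIs (first panel) and share of mitochondrial UMIs of each transcript (other panels, %) by Pf4 quintile, with cut points from DMSO cells and 95% exact intervals that cover counting error only. mt-Nd1 and mt-Atp6 are higher in RO-3066 in all 5 bins, and mt-Nd2, mt-Atp8, mt-Nd4 and mt-Nd5 are lower in all 5; the y axes do not start at 0.

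Within Pf4 bins of all kept cells, the direction between libraries, by the shares themselves, was the same in 5 of 5 bins for 6 of the 10 genes. mt-Nd1 and mt-Atp6 were higher in RO-3066 in all 5, and mt-Nd2, mt-Atp8, mt-Nd4 and mt-Nd5 were lower in all 5. mt-Co1 and mt-Co3 were higher in 4 of 5, mt-Co2 in 1 and mt-Cytb in 2. In cells of 15000 to 40000 UMIs, all 10 genes had the same direction in 5 of 5 bins: mt-Nd1, mt-Co1, mt-Atp6 and mt-Co3 were higher in RO-3066, and mt-Nd2, mt-Co2, mt-Atp8, mt-Nd4, mt-Nd5 and mt-Cytb were lower, mt-Cytb by a ratio of 0.913 to 0.9995. The mixed directions of mt-Co1, mt-Co2, mt-Co3 and mt-Cytb were thus not seen at that depth, where the highest bin held few RO-3066 cells. Directions also varied between 3 bands of depth: below 15000, 15000 to 40000 and above 40000 UMIs. There mt-Co1 was higher in RO-3066 in 2 bands and lower in 1, with ratios of 0.957 to 1.11. mt-Cytb was higher in 1 and lower in 2, with ratios of 0.875 to 1.16. mt-Co2 was lower and mt-Co3 higher in all 3.

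Barcodes with at least 1000 UMIs and over 10% mitochondrial UMIs were rare, 29 in RO-3066 (0.747% of barcodes) and 16 in DMSO (0.260%). They were shallow, with a median of 2518 UMIs in RO-3066 and 1847 UMIs in DMSO, and they held 15820 mitochondrial UMIs in RO-3066 and 6163 in DMSO. Their composition differed from that of the kept cells. In RO-3066 6 of the 10 genes had a higher share above the limit and 3 a lower, with intervals apart. In DMSO 4 had a higher share and 3 a lower, also with intervals apart. Outside the 10, mt-Nd4l was higher and mt-Nd3 lower in both libraries with intervals apart, and mt-Nd6 was higher in RO-3066 only. The counts are thus not particular to the 10. mt-Nd1 was lower above the limit in both, at 5.78% against 8.06% in kept cells in RO-3066, and at 4.79% against 6.90% in DMSO. mt-Co1 was lower as well, at 14.1% against 16.2% in RO-3066 and at 10.9% against 15.7% in DMSO.

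mt-Atp8 was higher above the limit, at 1.02% against 0.753% in kept cells in RO-3066, and at 2.09% against 1.31% in DMSO. mt-Atp6 was higher too, at 19.7% against 17.5% in RO-3066 and at 19.1% against 16.7% in DMSO, as were mt-Co2 and mt-Nd4 in both libraries. mt-Cytb was lower in RO-3066, at 8.82% against 10.3%, while its intervals overlapped in DMSO, at 10.5% against 9.86%. mt-Nd5 had a higher share above the limit in RO-3066 (1.71% against 1.38%) and a lower share in DMSO (1.43% against 1.80%). Pf4 took 0.104% of UMIs outside the mitochondrial genome above the limit in RO-3066, against 0.428% in kept cells. In DMSO it took 1.59%, against 0.507% in kept cells. These shares above the limit rest on 78 Pf4 UMIs in RO-3066 and 537 in DMSO. In kept cells of 1000 to 5000 UMIs, Pf4 took 0.240% in RO-3066 and 0.328% in DMSO. Above the limit in RO-3066, Itga2b (1370 CPM against 277 CPM in kept cells) and Vwf (110 CPM against 65.1 CPM) were instead higher. Itga2b rests there on 124 UMIs and Vwf on 10. The other megakaryocyte markers read lower there, like Pf4, but each rests on 0 to 5 UMIs, too few to give a direction. In DMSO all 8 markers read higher above the limit, with a sum of 16456 CPM against 5331 CPM in kept cells, some of them on 1 or 2 UMIs.

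Fewer genes stood apart against kept cells of similar depth, a comparison added after the data were seen. These kept cells held 4068 mitochondrial UMIs in RO-3066 and 1714 in DMSO, against 2939952 and 2917934 in all kept cells. The intervals were therefore wider. Fewer genes would stand apart even at the same ratios, so the lower counts decide nothing about depth. Against the 46 kept RO-3066 cells and the 19 kept DMSO cells of 1000 to 5000 UMIs, 1 gene was higher (mt-Co2) and 2 were lower (mt-Co1 and mt-Nd5) in RO-3066. In DMSO 1 was higher (mt-Atp6) and 0 were lower. Among the genes counted as overlapping, the interval of the ratio still left out 1 for mt-Atp6 in RO-3066 (1.003 to 1.18) and mt-Cytb in DMSO (0.728 to 0.999). mt-Atp8 had 1.18% in the shallow kept cells of RO-3066 and 1.58% in those of DMSO. Its intervals overlapped with those of the barcodes above the limit in both, though the ratio in DMSO was still 1.33 (0.872 to 2.09). mt-Nd5 turned round in RO-3066, since the shallow kept cells there had 2.53%, above the 1.71% of the barcodes over the limit. The part of depth in the composition above 10% was otherwise not tested.

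**Figure D5:**
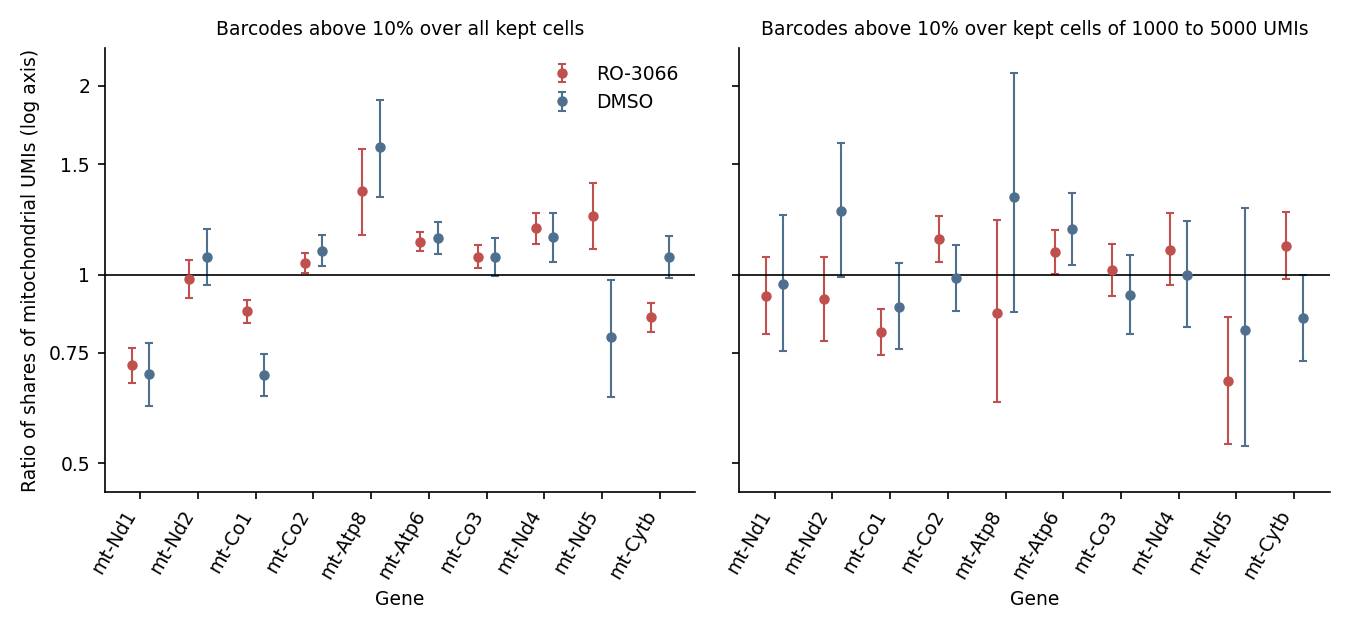
Ratio of each transcript's share of mitochondrial UMIs in barcodes above 10% mitochondrial UMIs over that in all kept cells (left) and in kept cells of 1000 to 5000 UMIs (right), on a log axis with 95% exact intervals, for 29 RO-3066 and 16 DMSO barcodes. mt-Nd1 lies below 1 and mt-Atp8 above 1 in both libraries on the left. On the right the intervals are wider, and those of both genes reach 1.

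Of 80 genes listed as nuclear subunits of complexes I to V, 79 had at least 20 CPM. Of these, 72 were lower in RO-3066 and 7 higher, with a median log2 ratio of -0.25 against -0.06 over all genes. The 7 higher of 79 stand against 41.7% of all genes. None was beyond 1.5-fold in either direction, where 3.35% of all genes were higher by that much and 2.27% lower. The largest difference was that of Cycs, cytochrome c, with 253 CPM in RO-3066 and 379 CPM in DMSO (ratio 0.667, 0.659 to 0.675). Cycs was listed with complex III, but it carries electrons from complex III to complex IV and is not a subunit of either. In complex I, Ndufab1, the mitochondrial acyl carrier protein, had 337 CPM in RO-3066 and 472 CPM in DMSO, and Ndufb2 and Ndufs6, accessory subunits, had ratios of 0.717 and 0.732. In complex II, which has no mitochondrially encoded subunit, Sdha, Sdhb and Sdhd had ratios of 0.820, 0.841 and 0.852. In complex III, Uqcrfs1, the Rieske iron-sulfur protein, had a ratio of 0.769 and Uqcr10 of 0.776.

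In complex IV, Cox5b had 591 CPM in RO-3066 and 814 CPM in DMSO (ratio 0.726) and Cox7c had a ratio of 0.799, while Cox7a2l, which joins complex IV to complex III in supercomplexes, was higher, at 292 CPM in RO-3066 and 221 CPM in DMSO (ratio 1.32). All 17 counted nuclear genes of complex V were lower, with Atp5g1, which encodes the rotor ring's subunit c, at 665 CPM in RO-3066 and 900 CPM in DMSO (ratio 0.740), and Atp5md and Atp5c1 at ratios of 0.783 and 0.795. Under median-ratio scaling the count was 70 lower and 9 higher over the 79 genes, and 16 lower and 1 higher in complex V. In complex IV, genes thus differed in direction by genome: all 3 mitochondrially encoded ones were higher and 9 of 11 nuclear ones lower. In complex III, mt-Cytb was higher and all 10 listed nuclear genes were lower. This did not hold for complexes I and V, whose mitochondrially encoded genes went both ways.

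Genes for transcribing and handling mitochondrial RNA differed little, 0 of them beyond 1.5-fold, against 3.35% of all genes higher by that much and 2.27% lower. Of 34 listed, 17 reached 20 CPM, and 0 of the 17 were higher in RO-3066 (median log2 -0.22), against 41.7% of all genes. Under median-ratio scaling 1 of the 17 was higher, and at a minimum of 5 CPM 5 of 32 were higher and 27 lower. The largest difference was in Ssbp1, the mitochondrial single-stranded DNA-binding protein, with 103 CPM in RO-3066 and 154 CPM in DMSO (ratio 0.667). Pnpt1, a polyribonucleotide nucleotidyltransferase, had a ratio of 0.742 and Elac2, which cuts the 3' ends of tRNAs, had 0.788. Of the mitochondrial ribosome, 71 of 76 counted genes were lower and 5 higher, with Mrpl50 (ratio 0.650) and Mrpl39 (ratio 0.652) at least 1.5-fold lower and Mrpl58 at 0.699. These 2 of 76 are near the 2.27% of all genes that were so, and the count was 0 under median-ratio scaling. All 25 genes of import and chaperones were lower (median log2 -0.32), among them the translocase subunits Timm23 (0.735) and Tomm70a (0.726) and the small chaperone Timm8a1 (0.697).

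The counts that follow stand against 41.7% of all genes higher in RO-3066, and a count near that share says nothing of the list. Of 6 counted regulators of mitochondrial biogenesis, 4 were lower and 2 higher, which is near it; the largest differences were in Gabpa (0.785) and Gabpb1 (0.843), subunits of nuclear respiratory factor 2, and in Yy1 (1.15). Assembly factors of complexes I and IV were lower in 18 of 21 cases and higher in 3, with Coa6 at 0.723 and Ndufaf4 at 0.728, while Surf1, an assembly factor of complex IV, had 23.1 CPM in RO-3066 and 16.2 CPM in DMSO (ratio 1.42). Among 11 antioxidant and uncoupling genes, 9 were lower and 2 higher, including Txnrd2 (0.682) and Glrx2 (0.793), and the carrier Ucp2 at 1.32.

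Of 13 counted genes of fusion, fission and mitophagy, 10 were lower and 3 higher, and 1, Bnip3, was at least 1.5-fold lower. Over all genes, 2.27% were at least 1.5-fold lower. Bnip3, a mitophagy receptor, had 25.9 CPM in RO-3066 and 92.3 CPM in DMSO, a ratio of 0.281 (0.272 to 0.291). Pink1, the kinase that marks damaged mitochondria, was higher, at 21.7 CPM in RO-3066 and 14.2 CPM in DMSO (ratio 1.53). On the log2 scale with the pseudocount it does not count as beyond 1.5-fold. Under median-ratio scaling it does, where 4.58% of all genes were at least 1.5-fold higher. Park7, an oxidative stress sensor, had a ratio of 0.741.

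Across cells, the genes whose share of nuclear UMIs ran most like the mitochondrial percentage included ribosomal protein genes at both ends. Likeness was the rho nearer to 0 of the 2 libraries' Spearman rho where both had the same sign, over 3799 RO-3066 and 6134 DMSO cells and 2635 named genes with at least 50 CPM in both. Rpl23a had the highest, with rho 0.577 in RO-3066 and 0.486 in DMSO, followed by Rps12 (0.510 in RO-3066, 0.475 in DMSO) and Rps25 (0.549 in RO-3066, 0.458 in DMSO). Next came Xist, a long noncoding RNA that coats the inactive X chromosome, with 0.495 in RO-3066 and 0.351 in DMSO, and Pcbp2, an RNA-binding protein, with 0.340 in RO-3066 and 0.334 in DMSO.

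The lowest were Rpl29 (-0.458 in RO-3066, -0.422 in DMSO), Rplp0 (-0.387 in both), Rpl18 (-0.455 in RO-3066, -0.373 in DMSO), Rpsa (-0.366 in RO-3066, -0.400 in DMSO) and Rpl21 (-0.472 in RO-3066, -0.358 in DMSO). Thinning each cell to 10000 UMIs kept all 5 of the lowest and 3 of the highest, with Kcnq1ot1 and Mbnl1 in place of Xist and Pcbp2. The 78 genes listed as nuclear subunits of complexes I to V with enough counts had a median rho of -0.214 in RO-3066 and -0.108 in DMSO. Over all 2673 genes compared it was -0.020 in RO-3066 and 0.0044 in DMSO. These values describe cells that share a library and differ in depth.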

How the data were processed

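For each library the authors deposited raw UMI counts by gene and barcode, made with the 10x Genomics 3' workflow per the labels. The submitters' processing notes name Cell Ranger 5.0.1 and mm10, and the matrix headers Cell Ranger 7.1.0; how overlapping genes and introns were counted is not given in the sources used here. Groups follow the treatment label. Barcodes with at least 1000 UMIs and at most 10% mitochondrial UMIs were kept. Likely doublets, 115 RO-3066 cells (3.03%) and 301 DMSO cells (4.91%) by simulated doublets among 50 neighbours, were kept and left out in an alternative.

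UMIs were summed over kept cells into CPM. A share is a gene's part of the UMIs of the 13 mitochondrial genes, with exact Clopper-Pearson intervals; ratios carry exact conditional Poisson intervals. Without replicates, genes were counted beyond 1.5-fold on log2(CPM + 1) where 1 or both libraries reached 20 CPM. Sums and ratios were tested on simulated data. Alternatives were other scalings, weights, limits, depths and pseudocounts.

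The genes and lists were chosen with earlier results of these data known. Named genes are the 10, mt-Nd3, mt-Nd4l, mt-Nd6, Pf4, the 3 largest absolute log2 ratios of each list, and the 5 highest and 5 lowest in likeness. Procr, Clec1b, Itga2b, Vwf, Hbb-bt, Kcnq1ot1 and Mbnl1 were named after their values were seen. Python 3.11.15, numpy 2.4.6, scipy 1.17.1, pandas 2.3.3 and scikit-learn 1.9.0 were used.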

Additional observations from a re-analysis of the deposited data

How the results depend on the processing

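With 1 library per treatment, no replicate could be left out and library and treatment cannot be told apart. No paired analysis was possible because each treatment had 1 library. Counting error is small for these abundant transcripts, so many alternatives left the interval of a value without changing its direction. The median log2 ratio of the 10 genes, 0.14, was 0.20 under median-ratio scaling, 0.16 with equal weight per cell, 0.15 with all barcodes, 0.15 with cells thinned to 10000 UMIs and 0.19 in cells of 15000 to 40000 UMIs. The count of genes at least 1.5-fold lower, 1, was 0 with equal weight per cell, with thinned cells and in cells of 15000 to 40000 UMIs. Over the levels, mt-Nd2 changed sign in 4 of 9 alternatives and mt-Nd5 in 1.

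The share ratio of mt-Nd1, 1.17, was 1.15 with equal weight per cell, 1.16 thinned and 1.11 in cells of 15000 to 40000 UMIs, and that of mt-Atp8, 0.574, was 0.628, 0.636 and 0.680 in the same order. The ratio of mitochondrial shares, 1.10, was 1.16 with equal weight per cell, 1.11 with all barcodes, 1.10 with a limit of 5%, 1.11 without likely doublets, 1.15 thinned and 1.19 in cells of 15000 to 40000 UMIs.

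From the lowest to the highest Pf4 bin in RO-3066, the ratio for mt-Atp8, 0.576, was 0.608 thinned and 0.741 in cells of 15000 to 40000 UMIs, a setting added after the data were seen. That for mt-Cytb, 1.12, was 1.11 with quintiles of each library, 1.10 thinned and 0.978 at that depth, and that for the mitochondrial share, 0.916, was 0.929, 0.953 and 1.11 in the same order. In DMSO the mt-Atp8 ratio, 0.880, was 1.04 thinned and 1.11 at that depth, the mt-Cytb ratio, 0.916, was 0.931 and 1.01, and the ratio for the mitochondrial share, 1.04, was 1.03 and 0.957. The directions of mt-Atp8 in DMSO and of the mitochondrial share in both libraries along Pf4 thus depend on depth. In RO-3066 the mitochondrial share changed direction only in cells of 15000 to 40000 UMIs, where the highest bin held few cells.

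Above 10% mitochondrial UMIs, the counts of genes higher and lower were 6 and 3 in RO-3066, and 4 and 3 in DMSO. Against kept barcodes of 1000 to 5000 UMIs, where intervals are wider, the counts became 1 and 2 in RO-3066, and 1 and 0 in DMSO. Against all kept cells they were 6 and 3 in RO-3066, and 5 and 3 in DMSO, without the barcode with the most mitochondrial UMIs in each library. The 2 mitochondrial ribosome genes beyond 1.5-fold became 0 under median-ratio scaling, and 3 of the 5 genes highest in likeness were shared after thinning. The cause of these changes was not tested.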
